A study of Mus musculus with 18 samples.

Results

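The step from 3 to 10 days after a photothrombotic stroke was examined in 6 of the 18 libraries of the series, 3 punches of the lesioned right side at 3 days (libraries 1, 2 and 8) and 3 at 10 days (libraries 1, 2 and 5). Every gene that reached 1 FPKM (fragments counted per kilobase of transcript, scaled to the library's total) in 3 or more of the 18 libraries was compared, 14016 of the 34921 gene entries read. All animals were male C57BL/6 mice of 9 weeks. At both times the mice had received 100 mg/kg rose bengal and, 5 min later, 15 min of laser light at 532 nm and 40 mW, centred 2 mm to the right of bregma. The punch was taken in a cryostat at the place of the lesion seen on T2-weighted magnetic resonance images, 3 animals at each time, and the labels name the tissue only as cerebral. The level before injury is taken from sham right, 3 punches of the matching right-side region of sham mice, libraries 1, 2 and 3. The other 9 libraries are those of 4 h, 1 day and left-side punches called contralateral left. In the comparison of 3 and 10 days they enter only through the filter of 1 FPKM and the estimate of the spread. The labels give each library as its own animal within a group and name no batch.

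Photothrombosis closes small vessels by light-activated dye and leaves a sharply bounded infarct. In the first days after such an injury, monocytes enter and microglia and astrocytes around the core divide, and debris is taken up. In the following week or so, phagocytes load with lipid from broken membranes and myelin, fibroblasts deposit collagen in the core, and astrocytes form a border around it. The comparison asks which transcripts of the lesion differ between these times.

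Neuronal, myelin and astrocyte transcripts were present in every library of both times. Snap25, a synaptic membrane fusion protein, was at 349 to 576 FPKM in the 6 libraries, and Slc17a7, the glutamate transporter of cortical excitatory neurons, at 67.5 to 112 FPKM. Library 5 of 10 days stood apart. Mitochondrially encoded transcripts took 44.6% of its summed FPKM, against 29.3% and 29.8% in the other libraries of 10 days and 25.6% to 27.2% at 3 days. Its mean correlation with the other libraries of its group, across genes, was 0.933, against 0.959 and 0.960 for libraries 1 and 2 and 0.978 to 0.983 at 3 days. Read totals were not used. The smallest recurring level in genes of a single exon, read as the worth of 1 fragment, gave a rough nominal depth of 12.45 M fragments for library 5 of 10 days and 20.65 to 27.23 M for the other 5. Of low values in those genes, up to 8 such levels, only 28.3% to 32.9% lay within 0.1 of a whole multiple. These depths are therefore uncertain. The choroid plexus also differed among the punches. Ttr, transthyretin, the leading transcript of that tissue, was at 60.2, 220 and 0.407 FPKM in libraries 1, 2 and 8 of 3 days and at 625, 402 and 533 FPKM in libraries 1, 2 and 5 of 10 days.

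Of the 14016 genes, 283 differed between 3 and 10 days (2.02%; limma on log2(FPKM + 1), Benjamini-Hochberg adjusted p under 0.05), 116 higher at 10 days (0.828%) and 167 lower (1.19%). Genes past this threshold are said to rise or to fall here, and a log2 fold change is the mean of log2(FPKM + 1) at 10 days minus that at 3 days, a scale that makes the changes of low genes look smaller. In 65 of the genes that rose and 73 of those that fell the change was at least 1 on that scale. In 282 of the 283 the 3 values at 10 days all lay beyond the 3 values at 3 days, the exception being Apobec1. Across all genes tested, 5.77% lay wholly above and 20.1% wholly below in this way. The median of all genes was -0.15, and 71.55% lay below 0. Shifting every library to the same median gave 286 calls, and 233 of the 283 were among them. Of the 286, 166 were higher and 120 lower (58.0% higher against 41.0%). Gene counts by direction thus move with the scaling, while no call changed sign. The number of calls depends on the spread borrowed from the other groups: a fit of the 6 libraries alone called 3 genes, Tgm1, Cst7 and Apoe.

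**Figure D1:**
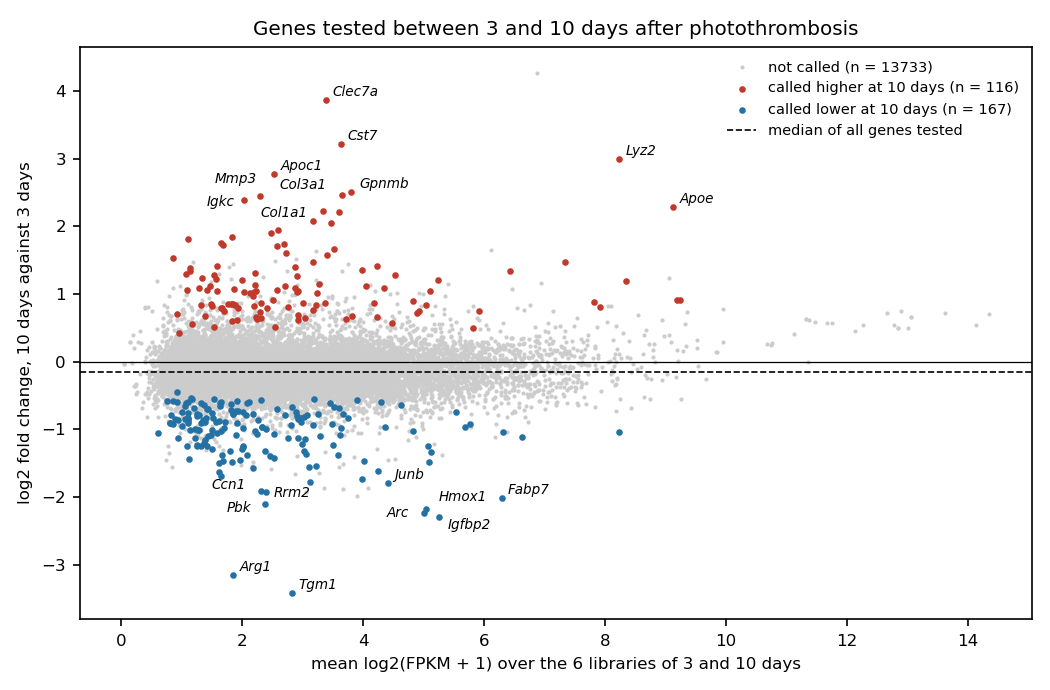
Log2 fold change of 10 days against 3 days (vertical axis) by mean log2(FPKM + 1) over the 6 libraries (horizontal axis), 1 point per gene tested. Red points are the 116 genes called higher, blue points the 167 called lower, and the dashed line is the median of all genes, -0.15. The gene names mark the 10 largest rises and 10 largest falls.

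The largest rises included genes of the phagocyte and activated microglia list, Clec7a, Cst7, Gpnmb and Apoe, beside collagens, a matrix protease and an antibody chain described further on. Clec7a, dectin-1, a receptor for fungal glucans that marks microglia around dying neurons and plaques (ENSMUSG00000079293, chromosome 6, 129461591 to 129472779 in GRCm38), was at 2.06, 1.01 and 2.37 FPKM in libraries 1, 2 and 8 of 3 days and at 30.9, 23.8 and 80.0 FPKM in libraries 1, 2 and 5 of 10 days. The groups did not overlap, and the log2 fold change was 3.87 ± 0.31 (SE, n = 3 per group; limma adjusted p = 5.28e-06). Cst7, cystatin F, an inhibitor of lysosomal cathepsins (ENSMUSG00000068129, chromosome 2, 150570415 to 150578944), went from 4.27, 2.00 and 3.29 FPKM to 36.2, 33.5 and 41.5 FPKM. Its 10-day values lay close together, library 5 included, and the change was 3.22 ± 0.18 (limma adjusted p = 8.35e-08). Apoe, the main lipid carrier of brain (ENSMUSG00000002985, chromosome 7, 19696109 to 19699188), was at 272, 227 and 260 FPKM at 3 days and at 1417, 1106 and 1199 FPKM at 10 days, a change of 2.28 ± 0.20 (limma adjusted p = 1.44e-05). Its 3-day values overlapped with those of sham right (245 to 354 FPKM). Apoc1, a small apolipoprotein encoded beside Apoe, went from 1.90, 0.899 and 0.970 FPKM to 26.9, 17.3 and 5.78 FPKM (2.77 ± 0.35, limma adjusted p = 4.42e-04), and here library 5 was the lowest of its group.

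Lyz2, lysozyme of monocytes, macrophages and granulocytes (ENSMUSG00000069516, chromosome 10, 117277331 to 117282321), stood at 109, 68.0 and 158 FPKM at 3 days and at 624, 512 and 1900 FPKM at 10 days. All 10-day values were higher, and library 5 was far above libraries 1 and 2, with a change of 2.99 ± 0.47 (limma adjusted p = 0.00238). Reads of its close copy Lyz1 may be counted with it. Gpnmb, a glycoprotein of lipid-laden macrophages, went from 8.30, 2.35 and 5.43 FPKM to 26.9, 18.4 and 67.1 FPKM (2.51 ± 0.37, limma adjusted p = 0.00127). Of the 20 phagocyte and activated microglia genes measured, 10 rose and none fell (background 0.828% higher), and the median was 1.03. The members that rose include Igf1, insulin-like growth factor 1 (1.90 ± 0.26), Lpl, lipoprotein lipase (1.48 ± 0.24), and Tyrobp, the adaptor that signals for Trem2 (1.47 ± 0.34). Also among them were Itgax, an integrin of dendritic cells and activated microglia (1.297 ± 0.169), Trem2, a lipid-sensing receptor (1.12 ± 0.19), and the cathepsin Ctsd (0.91 ± 0.18). Spp1, osteopontin, was not called. It was at 463, 208 and 425 FPKM at 3 days and at 501, 432 and 2468 FPKM at 10 days, where library 5 alone stood far above (1.23 ± 0.50, limma adjusted p = 0.245). Itgax passed the filter only through libraries of 10 days, and 9 of the 19 others rose. Of the 20, 9 to 11 were called higher under each rescaling, and 9 without library 5 of 10 days.

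**Figure D2:**
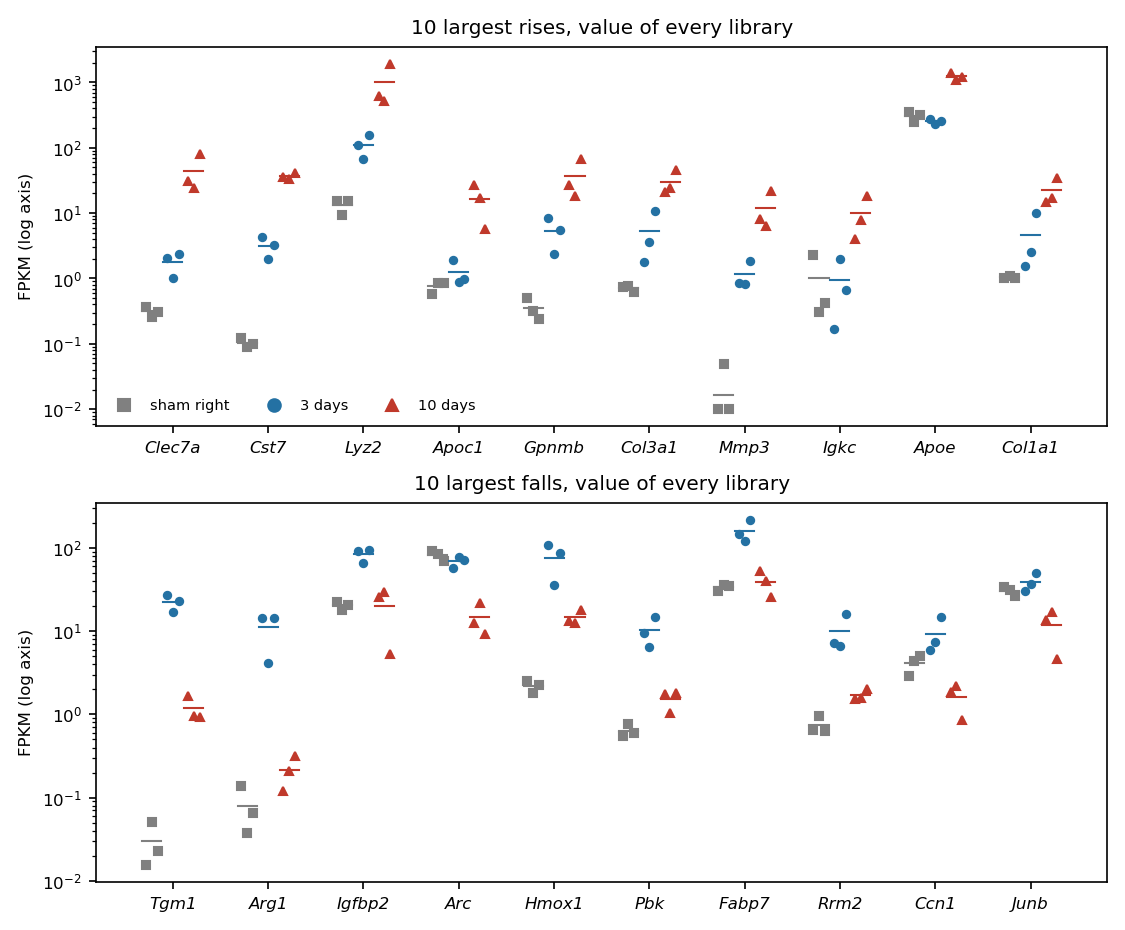
FPKM (log axis) of the 10 largest rises (top) and the 10 largest falls (bottom) in every library of sham right (grey squares), 3 days (blue circles) and 10 days (red triangles), with the group mean as a bar. Values of 0 (Mmp3 in 2 sham libraries) are drawn at 0.01. The genes were chosen to have 10-day values wholly on one side of the 3-day values. Library 5 is the highest 10-day point in Lyz2 and the lowest in Igfbp2.

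Of 18 lysosomal and lipid export genes measured, 5 rose and none fell (background 0.828% higher), with a list median of 0.50. Ctss, a cathepsin of antigen-presenting cells, was at 237, 177 and 230 FPKM at 3 days and at 507, 468 and 494 FPKM at 10 days (1.20 ± 0.23, limma adjusted p = 0.0106). Ctsk, a collagen-degrading cathepsin, went from 2.65, 2.80 and 5.30 FPKM to 8.51, 8.68 and 8.72 FPKM (1.12 ± 0.17, limma adjusted p = 0.00198), with 10-day values almost equal. Abca1, which exports cholesterol to apolipoproteins, went from 12.4, 7.32 and 12.5 FPKM to 27.1, 21.1 and 44.6 FPKM (1.41 ± 0.30, limma adjusted p = 0.0174), and its call ended without library 5 of 10 days or library 2 of 3 days (largest adjusted p = 0.0911), with no filter and after rescaling without mitochondrial genes. Hexa, a subunit of hexosaminidase (0.75 ± 0.14), and Npc2, which carries cholesterol out of lysosomes (0.74 ± 0.15), were the other members called. Without library 2 of 3 days the calls of Ctss (adjusted p = 0.0580) and Npc2 (0.0662) ended, and 2 members of the list were called.

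Of 22 collagen and other matrix genes of fibroblasts measured, 6 rose and none fell (background 0.828% higher). Col3a1, a fibrillar collagen of young scar (ENSMUSG00000026043, chromosome 1, 45311538 to 45349706), was at 1.80, 3.60 and 10.7 FPKM at 3 days and at 20.98, 24.00 and 45.03 FPKM at 10 days (2.46 ± 0.38, limma adjusted p = 0.00186). Col1a1, the main chain of type I collagen (ENSMUSG00000001506, chromosome 11, 94936224 to 94953042), went from 1.57, 2.54 and 10.0 FPKM to 15.0, 17.0 and 35.1 FPKM (2.23 ± 0.40, limma adjusted p = 0.00550). In both genes library 8 was the highest of 3 days and library 5 the highest of 10 days. The other members called were Col1a2 (2.08 ± 0.40), Lum, a collagen-binding proteoglycan (2.04 ± 0.42), Postn, periostin (1.09 ± 0.24), and Loxl1, a crosslinking oxidase (0.79 ± 0.18). Of the 22, 4 passed the filter only through libraries of 10 days, and with no filter 5 of 24 were called higher (136 of all 34921 genes). Fn1, fibronectin, the cell-binding glycoprotein, was not called, at 9.92, 8.16 and 15.8 FPKM at 3 days and at 8.403, 8.216 and 13.80 FPKM at 10 days (-0.13 ± 0.25). Between 2 and 10 members were called with 1 library left out, 2 without library 1 and 10 without library 8 of 3 days.

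Mmp3, stromelysin, a matrix protease (ENSMUSG00000043613, chromosome 9, 7445822 to 7455975), was at 0.839, 0.810 and 1.82 FPKM at 3 days and at 8.13, 6.38 and 21.9 FPKM at 10 days (2.45 ± 0.38, limma adjusted p = 0.00186). At 1 day it stood at 4.54 ± 1.98 FPKM (SD, n = 3), a mean above that of 3 days, in a comparison not tested. The receptors of TGF-beta, the cytokine that drives matrix production, rose as well. Tgfbr1 went from 6.22, 4.61 and 7.46 FPKM to 10.8, 10.8 and 13.2 FPKM (0.84 ± 0.14, limma adjusted p = 0.00394), and Tgfbr2 rose by 0.69 ± 0.14. Both belong to the TGF-beta list of 10 measured genes, whose median was -0.08 and became 0.06 after median centring. The call of Tgfbr2 ended without library 5 of 10 days and without library 1 or 2 of 3 days (largest adjusted p = 0.0899), and after rescaling without mitochondrial genes.

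Of 15 monocyte and macrophage genes measured, 2 rose and 2 fell (background 0.828% higher and 1.19% lower). Ms4a7, a membrane protein of infiltrated macrophages, went from 0.339, 0.490 and 1.48 FPKM to 4.11, 2.75 and 8.96 FPKM (1.76 ± 0.27, limma adjusted p = 0.00168), and Lyz2, above, is the other gene that rose. Ms4a7 passed the filter only through libraries of 10 days, and Arg1 and Chil3, which fell, only through libraries of 3 days. Arg1, arginase 1 of repair-type macrophages (ENSMUSG00000019987, chromosome 10, 24915221 to 24927484), fell from 14.5, 4.15 and 14.6 FPKM to 0.120, 0.211 and 0.312 FPKM (-3.15 ± 0.30, limma adjusted p = 3.04e-05). Its 10-day mean of 0.214 FPKM stood beside 0.0801 ± 0.0512 FPKM in sham right (SD, n = 3). Chil3, a chitinase-like protein of the same cells, was at 1.61, 1.24 and 1.39 FPKM and then at 0.372, 0.0589 and 0.470 FPKM (-0.90 ± 0.21, limma adjusted p = 0.0349), a call that ended in each of the 6 fits that left out 1 library. Cd68, a lysosomal protein of phagocytes at large, was not called, at 54.7, 27.4 and 47.3 FPKM at 3 days and at 70.5, 47.5 and 121 FPKM at 10 days (0.82 ± 0.29, limma adjusted p = 0.193). Lgals3, galectin-3, was at 43.1, 11.9 and 23.2 FPKM and then at 23.3, 20.2 and 35.5 FPKM (0.15 ± 0.34), with groups that overlap. In bulk tissue, fewer cells of a type and less RNA per cell cannot be told apart, here and in the results that follow.

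Lymphocyte genes were at low levels. Of the 20 on the list only 5 passed the filter, 3 of them only through libraries of 10 days, and 2 rose. Ccl5, a chemokine of T cells, went from 0.926, 0.783 and 0.959 FPKM to 4.40, 3.86 and 1.62 FPKM (1.12 ± 0.21, limma adjusted p = 0.00941). Ccl5 passed the filter only through libraries of 10 days, and 1 of the 2 members that passed without them rose. Igkc, the constant part of the kappa light chain of antibodies (ENSMUSG00000076609, chromosome 6, 70726435 to 70726966), was at 0.171, 1.98 and 0.657 FPKM and then at 3.99, 7.83 and 18.1 FPKM (2.39 ± 0.51, limma adjusted p = 0.0207), a call that ended without library 1 or 8 of 3 days or library 5 of 10 days (largest adjusted p = 0.120). With no filter on low values Igkc was not called (limma adjusted p = 0.0621). In that fit 8 of the 20 were called higher, against 136 of all 34921 genes. Among the 8 was Cd8a, the co-receptor of cytotoxic T cells, at 0.0147, 0.0118 and 0.0348 FPKM at 3 days and 0.289, 0.570 and 0.964 FPKM at 10 days. Cd3g, a chain of the T cell receptor complex, was at 0.0223, 0.0250 and 0.0883 FPKM and then at 0.317, 0.384 and 0.254 FPKM. Other T cell genes of the list, Cd3d, Cd3e, Cd4 and Trac, were not called with no filter (limma adjusted p = 0.179, 0.290, 0.474 and 0.132). The B cell gene Ms4a1 was at or near 0 in all 6 libraries (0 to 0.0381 FPKM). At the nominal depths levels under 1 FPKM rest on few fragments.

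Antigen presentation, complement and chemokine genes gave 1 call each. B2m, the light chain of class I molecules, rose from 452, 321 and 521 FPKM to 670, 663 and 1124 FPKM (0.91 ± 0.21, limma adjusted p = 0.0350), the single gene called among 13 measured, whose median was 0.40. H2-Aa, a class II chain that presents antigen to helper T cells, was at 1.75, 2.11 and 7.71 FPKM at 3 days and at 8.68, 8.05 and 12.9 FPKM at 10 days without being called (1.34 ± 0.37, limma adjusted p = 0.0833). Library 8 of 3 days was nearest to the 10-day values in this gene. C3, the central complement component, rose from 1.99, 0.636 and 0.492 FPKM to 3.39, 3.06 and 4.16 FPKM (1.22 ± 0.23, limma adjusted p = 0.00748), the single call among 12 complement genes. It passed the filter only through libraries of 10 days, and none of the 11 others was called. C1qa, a chain of the first component, was at 233, 159 and 208 FPKM and then at 423, 400 and 251 FPKM (0.82 ± 0.25, limma adjusted p = 0.132), and C4b, a component made by astrocytes too, had a change of -0.48 ± 0.29. Ccl3, a monocyte attractant, rose by 1.61 ± 0.39 (5.25, 1.82 and 2.08 FPKM against 7.14, 8.18 and 19.6 FPKM), alone among 10 cytokines and chemokines. The call of B2m ended after rescaling without mitochondrial genes. The calls of Ccl3 and B2m ended without library 5 of 10 days, that of Ccl3 also without library 2 or 8 and that of B2m without library 1 or 2 of 3 days (largest adjusted p = 0.237 and 0.172). Ccl2, the main attractant of monocytes, was lower in all 3 libraries of 10 days (2.38, 2.66 and 2.05 FPKM against 4.50, 3.25 and 5.42 FPKM) but was not called (-0.66 ± 0.29, limma adjusted p = 0.268). Of 16 interferon-stimulated genes 1 fell, Ifitm3, which blocks virus entry (-0.92 ± 0.23, limma adjusted p = 0.0499). Its call sat at the threshold and ended after median centring and without any 1 of 5 of the 6 libraries.

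Of the 30 genes of DNA replication and mitosis on the list 26 were tested, 17 fell and none rose (background 1.19% lower), and every one of the 26 had a fold change below 0. Since 16 of the 26 passed the filter only through libraries of 3 days, where they were high, these counts are partly set by the filter. Of the 10 others 4 fell, and with no filter 17 of all 30 fell (190 of all 34921 genes). Rrm2, which makes deoxynucleotides (ENSMUSG00000020649, chromosome 12, 24708241 to 24714146), was at 7.26, 6.71 and 15.9 FPKM at 3 days and at 1.51, 1.58 and 2.00 FPKM at 10 days (-1.93 ± 0.23, limma adjusted p = 2.98e-04). Ube2c, which marks mitotic proteins for destruction, went from 4.15, 3.04 and 6.63 FPKM to 0.563, 0.676 and 1.06 FPKM (-1.63 ± 0.19, limma adjusted p = 2.46e-04). Cdk1, the mitotic kinase, went from 2.59, 2.21 and 3.95 FPKM to 0.803, 0.507 and 0.560 FPKM (-1.25 ± 0.15, limma adjusted p = 2.66e-04). Pbk, a mitotic kinase found by its fold change and not on the list, fell from 9.63, 6.43 and 14.6 FPKM to 1.74, 1.04 and 1.81 FPKM (-2.097 ± 0.241). Mki67, the usual marker of dividing cells, was not called: library 5 of 10 days was at 4.94 FPKM beside 1.396 and 1.204 FPKM, and overlapped with 3 days (5.21, 3.72 and 8.49 FPKM). The number of list members that fell was 11 to 23 with 1 of the 6 libraries left out, lowest without library 8 and highest without library 2 of 3 days. It was 22 without library 5 of 10 days and 4 of the 10 members left by a filter of 1 FPKM in 6 libraries.

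The promoters of these genes share short motifs that the choice of genes did not use. Many genes of G2 phase and mitosis carry a cell cycle homology region, TTTGAA, near CCAAT boxes that bind the factor NF-Y. In RefSeq windows of 300 bases (250 before to 50 after the transcript start, build GRCm38.p6), 15 of the 17 genes that fell were matched, with 17 promoters. TTTGAA was found on either strand in 10 of the 17 (58.8%), against 17.9% of all 32851 promoters of that length, and CCAAT in 15 (88.2%) against 37.4%. Over all members tested the shares were 12 of 25 promoters (48.0%) and 22 of 25 (88.0%). TTTGAA was also in 4 of 11 promoters (36.4%) of the phagocyte genes that rose, and CCAAT in 5 (45.5%). In matrix genes that rose each was in 2 of 4. In lysosomal genes that rose, and in immediate early genes that fell, TTTGAA was in 1 of 5 and CCAAT in 2. In reactive astrocyte genes that fell they were in 1 and 2 of 7. A TTTGAA share above that of all promoters was thus not limited to the dividing cell genes, and these other sets are small. Matches are letters in a window and not sites shown to be bound. The windows of Cdk1 at chr10:69352863-69353162 (minus strand), Ccnb2 at chr9:70421505-70421804 (minus strand), Ube2c at chr2:164769679-164769978 (plus strand) and Top2a at chr11:99024140-99024439 (minus strand) are shown because they hold both motifs. Capitals mark TTTGAA and CCAAT on either strand (TTCAAA and ATTGG on the other).
Cdk1: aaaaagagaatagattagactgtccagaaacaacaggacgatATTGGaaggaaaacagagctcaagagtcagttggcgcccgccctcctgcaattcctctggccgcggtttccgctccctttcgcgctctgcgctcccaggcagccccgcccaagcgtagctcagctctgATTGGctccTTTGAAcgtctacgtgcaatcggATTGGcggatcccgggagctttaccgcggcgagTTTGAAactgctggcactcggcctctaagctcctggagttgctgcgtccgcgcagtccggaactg
Ccnb2: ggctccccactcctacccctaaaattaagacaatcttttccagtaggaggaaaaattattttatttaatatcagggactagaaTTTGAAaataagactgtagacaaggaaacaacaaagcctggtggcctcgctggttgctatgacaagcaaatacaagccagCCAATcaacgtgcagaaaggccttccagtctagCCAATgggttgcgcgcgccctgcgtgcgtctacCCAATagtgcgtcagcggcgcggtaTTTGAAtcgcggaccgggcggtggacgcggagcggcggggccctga
Ube2c: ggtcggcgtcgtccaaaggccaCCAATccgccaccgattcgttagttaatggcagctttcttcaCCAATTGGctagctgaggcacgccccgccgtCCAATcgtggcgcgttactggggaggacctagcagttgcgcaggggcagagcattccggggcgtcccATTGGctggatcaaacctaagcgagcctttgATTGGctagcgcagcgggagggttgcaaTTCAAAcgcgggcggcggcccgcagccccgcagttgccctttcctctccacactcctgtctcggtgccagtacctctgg
Top2a: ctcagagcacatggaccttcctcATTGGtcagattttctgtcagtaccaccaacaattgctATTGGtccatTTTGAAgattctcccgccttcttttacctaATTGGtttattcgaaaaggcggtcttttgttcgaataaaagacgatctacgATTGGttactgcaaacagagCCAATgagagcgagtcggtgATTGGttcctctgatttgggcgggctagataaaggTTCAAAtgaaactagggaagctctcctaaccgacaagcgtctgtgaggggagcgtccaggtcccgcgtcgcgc
Ccnb2, cyclin B2, fell by 1.26 ± 0.25 and Top2a, a topoisomerase that untangles replicated DNA, by 1.45 ± 0.24. In the phagocyte genes that rose, the PU.1 letters GAGGAAGT were found on either strand in 0 of 11 promoters of the 8 genes matched, against 3.2% of all promoters, which says only that these letters are not in these windows.

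Of 18 genes of reactive astrocytes measured, which include filaments and injury proteins, 6 fell and none rose (background 1.19% lower). The median was -0.70. Lcn2, an iron-binding protein secreted by reactive astrocytes, was at 42.4, 25.5 and 19.5 FPKM at 3 days and at 9.63, 5.24 and 8.81 FPKM at 10 days (-1.73 ± 0.30, limma adjusted p = 0.00476). Nes, nestin, a filament of immature and reactive cells, went from 7.15, 5.30 and 8.34 FPKM to 2.07, 2.01 and 0.958 FPKM (-1.58 ± 0.21, limma adjusted p = 6.44e-04). Tnc, tenascin-C, a matrix protein of injured tissue, went from 2.62, 1.54 and 4.48 FPKM to 0.588, 0.540 and 0.544 FPKM (-1.25 ± 0.23, limma adjusted p = 0.00733). It passed the filter only through libraries of 3 days, and its 10-day values were close to sham right (0.499 ± 0.112 FPKM, SD, n = 3). Gfap, the main astrocyte filament, was at 517, 362 and 424 FPKM and then at 230, 223 and 179 FPKM, without overlap. Its change of -1.04 ± 0.26 was at the threshold (limma adjusted p = 0.0497), and the call ended in each of the 6 fits without 1 library (largest adjusted p = 0.222). Vim, vimentin, another filament (82.4, 58.3 and 72.9 FPKM against 29.3, 30.8 and 50.1 FPKM; -0.96 ± 0.24, limma adjusted p = 0.0499), was as close to it, with the call lost in 5 of those 6 fits. Tm4sf1, a membrane protein, was the other member that fell (-0.81 ± 0.18). Timp1, an inhibitor of matrix proteases, was lower in all 3 libraries but not called (33.8, 25.6 and 46.7 FPKM against 11.9, 8.93 and 15.5 FPKM; limma adjusted p = 0.156), and so was the protease inhibitor Serpina3n (-1.04 ± 0.29, adjusted p = 0.0862). Between 3 and 5 members were called with 1 library left out, and 3 after median centring.

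Genes outside that list fell too. Fabp7, a fatty acid binding protein of immature astrocytes (ENSMUSG00000019874, chromosome 10, 57784881 to 57788450), was at 149, 120 and 215 FPKM at 3 days and at 53.3, 39.9 and 25.5 FPKM at 10 days (-2.02 ± 0.31, limma adjusted p = 0.00167). Its level at 10 days overlapped with sham right (33.7 ± 3.27 FPKM, SD, n = 3). Igfbp2, which binds insulin-like growth factors (ENSMUSG00000039323, chromosome 1, 72824503 to 72852474), went from 91.3, 66.9 and 95.2 FPKM to 26.0, 29.5 and 5.26 FPKM (-2.29 ± 0.42, limma adjusted p = 0.00701). Library 5 was far below the others, and the change without it was -1.56. Aldh1l1, a folate enzyme of astrocytes, was the single gene called among 14 resting astrocyte markers, at 18.3, 14.7 and 16.3 FPKM and then at 8.59, 8.07 and 3.69 FPKM (-1.23 ± 0.20, limma adjusted p = 0.00336). Aqp4, the water channel of their endfeet, had a change of -0.18 ± 0.17, with groups that overlap. The median of the resting astrocyte list was -0.14, near that of all genes, and 0.01 after median centring.

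Tgm1, transglutaminase 1, which crosslinks proteins (ENSMUSG00000022218, chromosome 14, 55700009 to 55713926), gave the largest fall. It was at 27.4, 16.9 and 23.3 FPKM at 3 days and at 1.68, 0.957 and 0.924 FPKM at 10 days (-3.42 ± 0.21, limma adjusted p = 2.16e-07). Hmox1, the enzyme that degrades heme from lysed red cells (ENSMUSG00000005413, chromosome 8, 75093621 to 75100589), fell from 107, 35.6 and 86.0 FPKM to 13.14, 12.67 and 18.04 FPKM (-2.18 ± 0.39, limma adjusted p = 0.00550). Its 10-day level still lay above sham right (2.19 ± 0.353 FPKM). No other gene was called among 16 of oxidative stress, heme and iron handling. The 5 red blood cell genes were not called (median -0.47), and their summed level was 302 to 422 FPKM at 3 days and 122 to 394 FPKM at 10 days, lowest in library 5. Adm, adrenomedullin, a vasodilator peptide induced by low oxygen, was at 3.29, 2.79 and 3.05 FPKM and then at 0.953, 1.20 and 0.898 FPKM (-1.004 ± 0.132, limma adjusted p = 6.03e-04), the single call among 15 glycolysis and hypoxia genes, whose median was -0.45.

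Immediate early genes are those that neurons and other cells induce within minutes of a stimulus. Of 17 measured, 9 fell and none rose (background 1.19% lower), and the median was -0.84. Arc, an organiser of active synapses (ENSMUSG00000022602, chromosome 15, 74669083 to 74672570), was at 57.3, 78.7 and 71.8 FPKM at 3 days and at 12.63, 22.004 and 9.25 FPKM at 10 days (-2.24 ± 0.26, limma adjusted p = 2.46e-04). All 10-day values lay below those of sham right (70.6 to 91.6 FPKM). So did those of contralateral left (39.2 to 45.5 FPKM), 4 h (34.6 to 46.1 FPKM) and 1 day (24.5 to 46.9 FPKM). The summed level of the immediate early list was 155 to 200 FPKM in contralateral left and 234 to 296 FPKM in sham right. Junb, a subunit of the transcription factor AP-1 (ENSMUSG00000052837, chromosome 8, 84974484 to 84978718), went from 30.5, 37.1 and 50.2 FPKM to 13.5, 17.1 and 4.63 FPKM (-1.79 ± 0.30, limma adjusted p = 0.00434). Nr4a1, an orphan nuclear receptor, went from 22.9, 36.0 and 39.9 FPKM to 10.8, 10.4 and 8.32 FPKM (-1.61 ± 0.23, limma adjusted p = 0.00103). Fos, the partner of the Jun proteins, fell by 1.78 ± 0.27 and Egr1, a zinc finger factor, by 1.24 ± 0.23. At 10 days Arc, Junb, Nr4a1, Fos and Egr1 were below sham right in every library. The others that fell were Fosl1, Ier2, Ier3 and Dusp1. Ccn1, a matrix protein induced as quickly by serum (ENSMUSG00000028195, chromosome 3, 145646976 to 145649981), fell from 5.93, 7.38 and 14.6 FPKM to 1.85, 2.19 and 0.853 FPKM (-1.92 ± 0.31). Among 12 heat shock chaperones Hspa1a (-0.97 ± 0.18) and Hspa1b (-0.96 ± 0.19) fell, near-identical copies of each other whose reads cannot be assigned with certainty. The call of Hspa1b ended without library 1 of 3 days or library 5 of 10 days (largest adjusted p = 0.0739). Between 8 and 10 immediate early genes were called with 1 library left out and 8 or 9 under each rescaling.

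**Figure D3:**
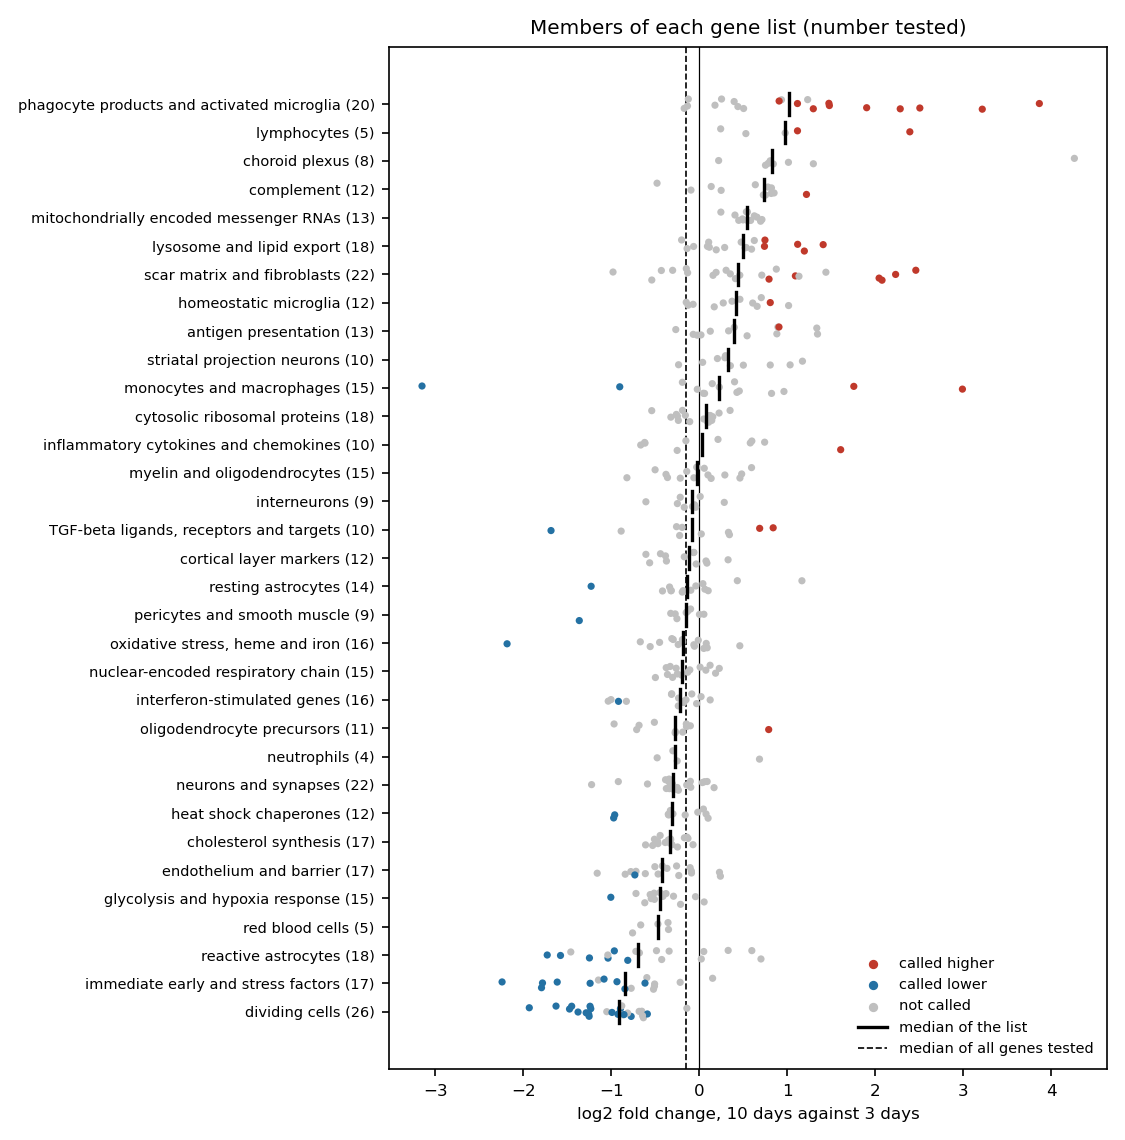
Log2 fold change of 10 days against 3 days (horizontal axis) of every tested member of the 33 gene lists (rows, number tested in brackets), ordered by the median of the list (black bar). Red and blue points passed the test as higher and lower at 10 days, grey points did not, and the dashed line is the median of all genes, -0.15. Phagocyte genes lie farthest to the right (median 1.03) and dividing cell genes farthest to the left (-0.91).

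Neurons, oligodendrocytes and vessels gave few or no calls. Among 22 genes of neurons and synapses there was no call (median -0.30), nor was there one among 12 cortical layer markers (-0.12, and 0.03 after median centring) or 10 striatal projection neuron markers (0.33). Snap25 was at 428, 489 and 349 FPKM at 3 days and at 398, 454 and 576 FPKM at 10 days. The striatal list differed among punches of 1 time: its summed level was 66.1, 160 and 65.2 FPKM at 3 days and 120, 92.3 and 144 FPKM at 10 days. None of 15 myelin genes was called (median -0.03, and 0.12 after median centring). Mbp, myelin basic protein, was at 62.6, 87.4 and 59.7 FPKM and then at 86.5, 87.4 and 57.5 FPKM. Enpp6, a marker of newly formed oligodendrocytes, rose from 1.43, 2.42 and 2.00 FPKM to 3.39, 3.55 and 5.42 FPKM (0.79 ± 0.20, limma adjusted p = 0.0485), alone among 11 precursor genes, and its call ended in 5 of the 6 fits without 1 library (largest adjusted p = 0.245). Of 17 endothelial genes 15 had a fold change below 0 (median -0.42, and -0.27 after median centring). In 10 of the 17 the 10-day values lay wholly below those of 3 days, against 20.1% of all genes. The single gene that fell was Plvap, a protein of leaky vessels (3.15, 3.28 and 5.30 FPKM against 2.21, 2.01 and 1.53 FPKM; -0.73 ± 0.17, limma adjusted p = 0.0317), and that call ended without library 8 of 3 days, library 2 or library 5 of 10 days (largest adjusted p = 0.149). Cldn5, the main tight junction protein, was at 38.5, 38.2 and 40.2 FPKM and then at 22.5, 27.3 and 7.62 FPKM (-1.16 ± 0.36, limma adjusted p = 0.130). Tagln, an actin-binding protein of smooth muscle, fell from 11.2, 12.3 and 13.7 FPKM to 4.91, 5.11 and 2.89 FPKM (-1.36 ± 0.21, limma adjusted p = 0.00167), the single call among 9 pericyte and smooth muscle genes (median -0.15, near that of all genes).

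The 12 homeostatic microglia genes measured had a median of 0.42. P2ry12, the nucleotide receptor of resting microglia, was at 9.56, 22.5 and 11.6 FPKM and then at 14.2, 16.1 and 41.8 FPKM (0.61 ± 0.40, limma adjusted p = 0.401). Neutrophil markers were low at both times: S100a8 was at 1.28 to 2.15 FPKM at 3 days and at 1.15 to 1.53 FPKM at 10 days, and none of the 4 measured was called. All 8 choroid plexus genes measured had a fold change above 0 and 7 lay wholly above 3 days (5.77% of all genes did), though none was called. Their summed level was 142, 324 and 69.2 FPKM at 3 days and 779, 542 and 707 FPKM at 10 days, against 232 to 363 FPKM in sham right, and its part in the other changes was not tested. Ttr itself had a change of 4.264 ± 2.102 (limma adjusted p = 0.305). The 17 cholesterol synthesis genes all lay below 0, with a median of -0.33 (-0.18 after median centring) and none called. Hmgcs1, an early enzyme of that pathway, was at 42.7, 56.3 and 46.1 FPKM and then at 40.4, 40.9 and 33.6 FPKM. None was called of 15 nuclear-encoded respiratory chain genes (median -0.20), 18 ribosomal protein genes (0.07) and 13 mitochondrially encoded messenger RNAs (0.55), of which mt-Nd1 was at 5549, 6263 and 5625 FPKM and then at 6436, 6978 and 13600 FPKM.

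The levels of the genes of the step were also set beside sham right. In the same fit 1032 genes (7.36%) differed from sham right at 3 days, 6.91% of all genes higher and 0.457% lower. At 10 days 1000 (7.13%) differed, 6.21% higher and 0.92% lower. These comparisons share libraries with the step and with each other. Apoe had a log2 fold change against sham right of -0.26 at 3 days (limma adjusted p = 0.618) and 2.02 at 10 days (2.82e-06), Apoc1 of 0.33 (0.746) and 3.104 (1.23e-05), and Ctsk of 0.06 (0.934) and 1.17 (2.03e-04). Cst7 was above sham right at both times, by 1.89 (3.92e-06) and 5.10 (6.90e-11), and so was Lyz2, by 2.93 and 5.92. Rrm2 was above it by 2.56 at 3 days (2.74e-06) and by 0.63 at 10 days (0.145), and Cdk1 by 1.75 (1.69e-06) and 0.50 (0.0521). Arg1 went from 3.32 (2.14e-06) to 0.17 (0.792), Nes from 1.64 (7.10e-05) to 0.06 (0.902), and Igfbp2 from 1.98 (0.00577) to -0.31 (0.725). Other genes that fell were still above sham right at 10 days: Gfap by 2.08 (3.14e-05), Lcn2 by 2.92 (4.25e-06), Hmox1 by 2.28 (7.42e-04), Vim by 2.72 (9.38e-07) and Tgm1 by 1.07 (0.00313). Arc was not called against sham right at 3 days (-0.26, adjusted p = 0.733) and was below it at 10 days (-2.49, 4.87e-06), as were Nr4a1 (0.02 and -1.60) and Junb (0.33 and -1.46). For Arc every sham right library also lay above every contralateral left library, as given above.

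**Figure D4:**
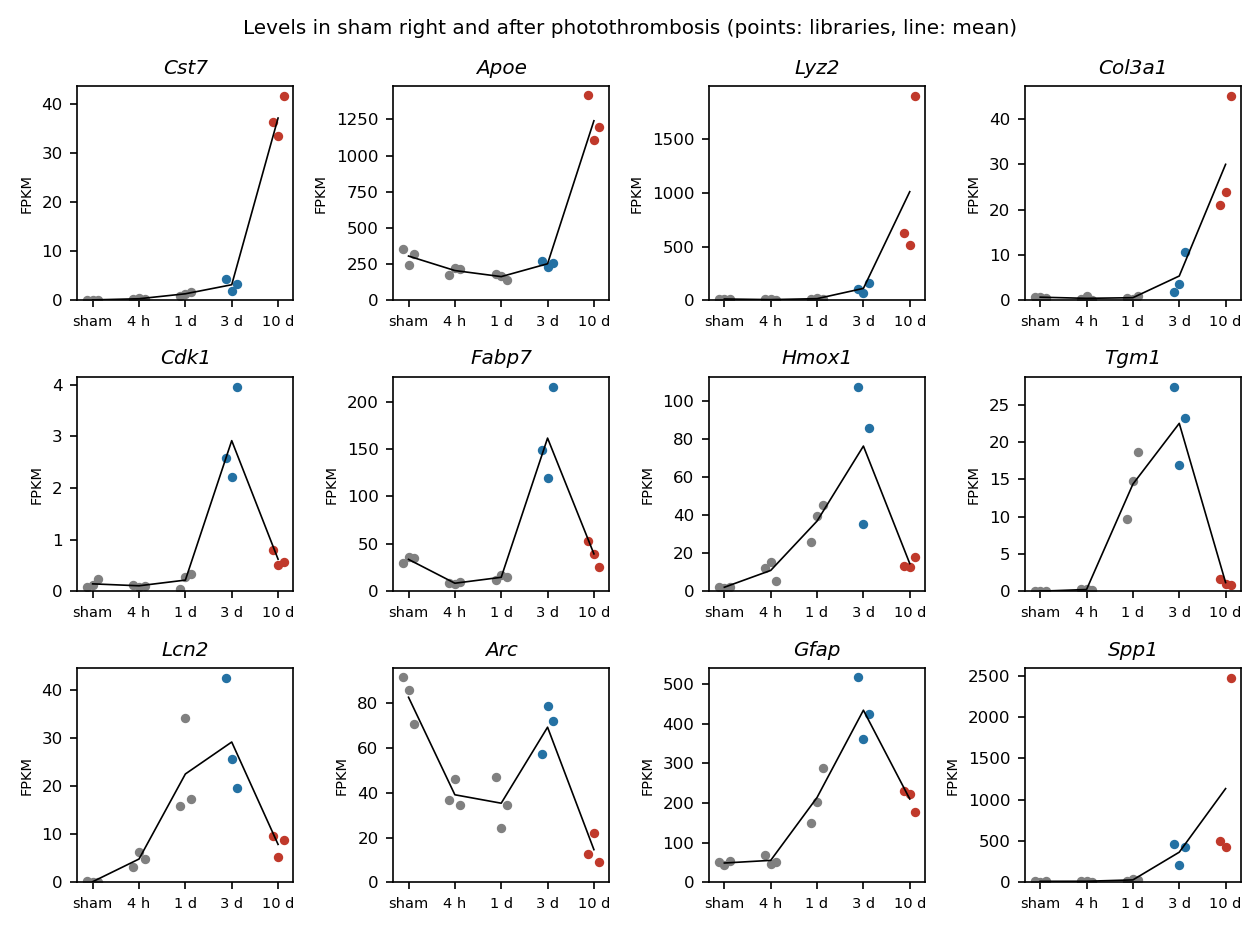
FPKM of 12 genes (linear axes from 0) in sham right and at 4 h, 1 day, 3 days and 10 days. Points are libraries, the line joins group means, and the spacing of the times is not to scale. Cst7, Apoe, Lyz2 and Col3a1 are highest at 10 days, Cdk1, Fabp7, Hmox1, Tgm1, Lcn2 and Gfap at 3 days, Arc is lowest at 10 days, and 1 library carries the 10-day mean of Spp1.

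Libraries of 1 time ranked in a like order across the genes that changed. Library 5 was the highest of 10 days in 90 of the 116 genes that rose (77.6%), against 27.9% of all genes tested. At 3 days library 8 was the highest and library 2 the lowest in most genes of both kinds: library 2 was lowest in 95 of the 116 that rose (81.9%) and in 134 of the 167 that fell (80.2%), against 45.2% of all genes. Without library 5 of 10 days 210 genes were called (79 higher, 131 lower), and 182 of the 283 were among them. Of the 51 named genes that were called, 36 were called in each of the 6 fits that left out 1 library. Among the 20 largest changes that held for all but Igkc.

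**Figure D5:**
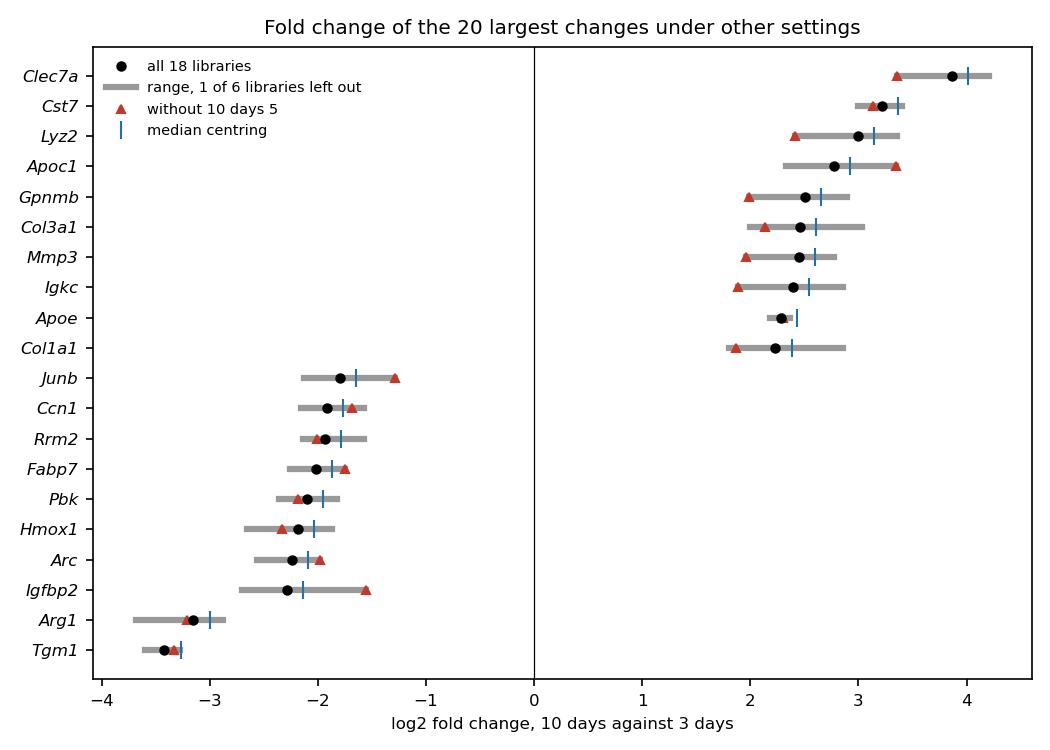
Log2 fold change of 10 days against 3 days for the 10 largest rises and the 10 largest falls. Black points are the fit of all 18 libraries, grey bars the range over the 6 fits that leave out 1 library of 3 or 10 days, red triangles the fit without library 5 of 10 days, and blue ticks the fit after median centring. No gene crosses 0. Clec7a is 3.87 with all libraries and 3.36 without library 5.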

How the data were processed

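RNA of 18 punches was measured by total RNA sequencing, and the values are FPKM that the authors deposited, 1 column per library. The submitters' processing notes name Trimmomatic 0.36, HISAT2 2.1.0, StringTie 1.3.4d and the build GRCm38; settings, annotation and strand handling are not given in the sources used here. Since FPKM is relative to a library's total, mitochondrial RNA can take a share from other genes. Whether it did so here was not tested. The median of all genes was -0.15 in the main fit and -0.21 after rescaling without mitochondrial genes. The p-value and q-value columns of the same table, which the authors deposited with no groups named, were not used. The copy read here ends inside a line and is ordered by that q-value; 34921 complete entries were read, and later entries were not analysed here. Of list members, Cd163, Elane, Myh11 and Reln were not analysed here, and a few called or listed genes are not reported here.

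Gene names and positions come from GENCODE M21 on GRCm38. Log2(FPKM + 1) of the 14016 genes with 1 FPKM in 3 or more libraries was fitted with limma 3.58.1 (R 4.3.3; trend and robust moderation), 1 mean for each of 6 groups, Benjamini-Hochberg over all genes. P-values rest on 1 spread per gene pooled over the 6 groups, between animals as the labels give them. Mean correlations with the own group were 0.933 to 0.960 at 10 days and 0.987 to 0.988 in sham right. The pooled spread therefore need not be that of 10 days. The labels do not say whether left-side and sham right libraries of equal number share an animal. Named genes are the 10 largest rises and falls among called genes whose groups do not overlap and whose higher mean reaches 1 FPKM, up to 2 members per list and direction with the smallest adjusted p (all, where 5 or fewer were called), and a panel of 39 genes; other called members are given to complete a list, chosen after their values were seen. The members, the 33 lists and the rules were chosen with earlier results of these data known. Promoter windows are from RefSeq. The 18 alternatives covered pseudocount, filter, libraries, weights, moderation, scaling and block.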

Additional observations from a re-analysis of the deposited data

How the results depend on the processing

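No alternative turned the direction of a called gene. The number of genes called, 283 (116 higher, 167 lower), was 173 (61 higher) with log2(FPKM + 0.1), 2180 (623 higher, 1557 lower) with limma array weights, whose estimation stopped before full convergence, and 3 (2 higher, 1 lower) with the 6 libraries alone, a fit of fewer samples. Quantile normalization gave 192 higher, and a filter of 1 FPKM in 6 libraries gave 106 lower, with fewer genes tested. The cause of the other differences was not tested. With each library of 3 or 10 days left out in turn the calls were 160 to 336, 57 to 150 higher and 91 to 223 lower, lowest without library 1 of 3 days, and for higher genes without library 2 of 3 days (57). With a replicate block in the fit there were 142 calls (81 higher, 61 lower), 118 of them shared with the 283. Equal numbers mark different animals. The deviations of equally numbered libraries correlated at -0.02 (number 1) and 0.25 (number 2). Library 8 of 3 days and library 5 of 10 days, of unequal number, correlated at 0.24. With so few pairs these values cannot show whether libraries of equal number share a batch. The share of higher genes among calls was 41.0%, 57.5% after quantile normalization, 58.0% after median centring and 35.7% after rescaling without mitochondrial genes. Among the 76 named genes 51 were called, and of these 48 lost their call in the fit of 6 libraries and 18 with the block. Most lymphocyte genes lay under 1 FPKM, which means few fragments at the nominal depths, and the part of depth in their results was not tested.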

Other observations

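Genes named in these paragraphs were chosen after their values were seen, and all comparisons are limma on log2(FPKM + 1) over all genes tested. Of all genes tested, 0.828% rose from 3 to 10 days and 1.19% fell. Cd300c2, a receptor of myeloid cells, rose from 3 to 10 days, from 13.72, 10.96 and 14.31 FPKM to 31.9, 25.5 and 28.8 FPKM (1.09 ± 0.23, adjusted p = 0.0172). Cd300a and Cd300ld3 also rose, but passed the filter only through libraries of 10 days. Tlr7, a receptor for single-stranded RNA, went from 2.41, 0.972 and 3.35 FPKM to 9.12, 7.80 and 17.5 FPKM (1.94 ± 0.35, adjusted p = 0.00572), and Tlr2 rose as well, 2 of 7 Tlr genes tested. Lag3, a receptor that restrains T cells and is also found on microglia, went from 2.65, 2.42 and 2.58 FPKM to 13.8, 14.4 and 6.38 FPKM (1.74 ± 0.21, adjusted p = 2.66e-04), with library 5 the lowest of 10 days. Cd5l, a scavenger-associated protein of macrophages, was listed at 0 in all 3 libraries of sham right and went from 7.06, 3.24 and 7.03 FPKM to 18.5, 10.8 and 11.9 FPKM (1.14 ± 0.21). Eln, elastin, was at 0.559, 0.904 and 1.28 FPKM and then at 4.97, 6.49 and 6.04 FPKM (1.85 ± 0.17, adjusted p = 2.20e-05), with Mfap4 (1.28 ± 0.19) and Mfap2 (0.74 ± 0.18), proteins of elastic fibres. Eln and Mfap4 passed the filter only through libraries of 10 days. Of 10 matrix metalloproteinase genes tested 3 rose, Mmp2, Mmp3 and Mmp13, the last of which passed the filter only through libraries of 10 days.

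Of 18 Dusp phosphatase genes tested 3 fell, Dusp1, Dusp5 (7.34, 8.82 and 5.92 FPKM against 2.58, 2.77 and 1.69 FPKM; -1.32 ± 0.22, adjusted p = 0.00394) and Dusp6 (-0.97 ± 0.22). Hbegf, a ligand of the epidermal growth factor receptor, went from 8.88, 6.58 and 10.3 FPKM to 2.84, 2.90 and 1.88 FPKM (-1.43 ± 0.18, adjusted p = 4.42e-04). Socs3, an inhibitor of cytokine signalling through STAT3, fell by 1.37 ± 0.27, and Ccnd1, cyclin D1, by 1.47 ± 0.19. Tubb6, a tubulin of injured and growing cells, went from 15.2, 10.9 and 20.4 FPKM to 5.07, 3.85 and 4.65 FPKM (-1.54 ± 0.21, adjusted p = 6.44e-04). Tgm2, the tissue form of transglutaminase, fell by 1.13 ± 0.21 beside the larger fall of Tgm1.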
